A study of Drosophila melanogaster with 41 samples.

Results

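Small internal exons of Drosophila genes were followed through embryos and adult heads of flies with altered ELAV-family proteins. Where the annotated exons of a gene overlap, they are cut at every boundary into exon bins. A bin was taken when it was 3 to 51 nt long, was neither the first nor the last bin of its gene, and was separated from the other bins of that gene by at least 1 nt on each side. The rule used the annotation and no measured value. It found 1075 small exons in 871 genes, out of 84619 bins in 17027 genes. A further 33283 bins met the same conditions but were longer than 51 nt.

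The study compared polyadenylated RNA of male flies, from pooled whole embryos or pooled heads, in 41 libraries of 11 groups. At 14-16 h after egg laying (AEL) there were 4 libraries each of wild type (w1118), Δelav (a null allele of elav, labelled delta-elav), elavmin and Δelav,fnenFNE. Adult heads, labelled 72 h AH and from 3-day-old adults by the study's account, had 3 libraries each of wild type, elavmin and Δelav,fnenFNE. At 7-8 h AEL there were 4 libraries each of a control carrying fnenFNE, elavmin,fnenFNE, Δelav,fnenFNE and elavnFNE. The elavmin allele is a frame shift in the third RNA-recognition motif that leaves a truncated ELAV at very low level. In fnenFNE the introns around the mini-exon of fne were removed and the protein was tagged, so that only nuclear FNE is made. In elavnFNE the coding region of nuclear FNE replaced that of elav, and the endogenous fne gene of that line is drawn in the study without the mini-exon. The control, elavmin and Δelav at 7-8 h all carried fnenFNE, and mutant males were sorted with GFP-marked balancer chromosomes. The 7-8 h libraries were read with shorter reads than the others, so age and read length cannot be told apart between 7-8 h and 14-16 h.

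Alternative splicing includes or skips exons as introns are removed, and very short exons, often called microexons, are known from other animals to be included mostly in neurons and muscle, where they add a few amino acids to a protein without shifting its frame. ELAV is a neuronal RNA-binding protein that binds U-rich stretches of nascent transcripts and changes splicing and 3′ end choice. FNE and RBP9 are its paralogs in flies, and elav is the usual marker of fly neurons.

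Exons on which the results turn are printed below with capitals for the exon and lower case for the adjoining bases of the intron, 5′ to 3′ on the gene's strand, read from the Drosophila Release 6 genome (dm6). They are shown because they moved in the mutants or between ages and because their whole length can be seen at once.

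cpx: gctcgacagATGCTGCAGGCGgtaatttct
PMCA: aacgaccagATTTCAGTACCGgtaagaatt
Fas1 E010: aacgttcagTCGTTCAAGgtaaacaac
Fas1 E011: ctgatttagTTTATGAACgtaagtaaa
CG42268 E002: attaaatagAGTCCCAAGgtaatgcaa
CD98hc: cacatgaagGCAGAGgtaaaaact
up E011: ttgttgcagGAAgtaagtaaa
Moe: gACTGGATCAATGCCGTTTTCGACATGGg
Fer2LCH: gCGCTCACGGGCTTTTTCACAGGCAAGAg
bru1: aaaacgcagCTAAAAAGACAGgtgagagtt
Slob: atttttcagACAAGAAAACAAgtaaagtat
nrv3: aataataagATCACAgtaagttat
OtopLa: taagCACACACTGGCCAAGTTTCTGgttt

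In dm6 these lie at chr3R:4288072-4288083 for cpx, chr4:337536-337547 for PMCA, chr3R:16634374-16634382 and chr3R:16635086-16635094 for the Fas1 bins E010 and E011, chr3L:9735672-9735680 for CG42268, chr3R:7975054-7975059 for CD98hc and chrX:13598174-13598176 for up. Moe lies at chrX:8876033-8876059, Fer2LCH at chr3R:30389416-30389442, bru1 at chr2L:12300610-12300621, Slob at chr2L:7649189-7649200, nrv3 at chr2L:21388282-21388287 and OtopLa at chrX:5633738-5633758. All were annotated as internal exons with coding sequence, and the CG42268 exon was also the last exon of a transcript. Each is a multiple of 3 nt long, between 3 and 27 nt. Wherever at least 4 bases of intron are printed, the exon follows AG and is followed by GT.

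Reading frame and skipping set the shortest exons apart from the others in the annotation. The median length of the 1075 was 38 nt, 257 were up to 27 nt and 60 up to 12 nt, and 9 had only 3 nt. In the Ensembl transcripts of the reference 1066 (99.2%) were exact annotated exons, 870 (80.9%) were internal in every transcript that has them, 190 (17.7%) were a first exon, 637 (59.3%) were coding and 287 (26.7%) lay in a 5′ UTR. At least 1 transcript skipped 592 of them (55.1%), and 580 (54%) were a multiple of 3 long. Among those up to 27 nt, 75.5% were skipped by a transcript and 70.8% were a multiple of 3. Of the internal coding ones, 68.6% were a multiple of 3, and 88.6% of those up to 27 nt. The letters TTTTTTT, searched on the gene's strand and not on the other, occurred within 100 nt upstream of 77 internal small exons (8.85%) and within 100 nt downstream of 52 (5.98%). In 141 genes there were at least 2 small exons, so that these share a gene total, and bt, with 7, had the most.

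The libraries held between 17668742 and 51377771 counts on bins. Small exons took 0.45% to 0.50% of them at 14-16 h, 0.342% to 0.445% in heads and 0.214% to 0.247% at 7-8 h. The deleted elav sequence was checked by the share of elav counts on bin E003, which was 33.2% to 36.8% in wild-type embryos and 17.8% to 19.2% in Δelav, and 33.1% to 37.6% in wild-type heads and 10.1% to 15.3% in Δelav,fnenFNE heads. The frame shift of elavmin cannot be seen in bin counts, and its share was 35.3% to 40.6% in embryos. Summed library-scaled counts (CPM) of 14 neuron markers were 2720 to 3300 across all groups at 14-16 h, 9780 to 12100 in heads and 550 to 947 at 7-8 h. The mutated gene elav is among these markers. At 14-16 h its own CPM was 168 to 185 in wild type, 337 to 364 in elavmin, 549 to 629 in Δelav and 526 to 664 in Δelav,fnenFNE. In the 7-8 h control elav gave 595 to 752 of a sum of 615 to 785. As group means at 14-16 h the sum was 3090 in wild type, 2930 in Δelav, 3000 in elavmin and 2990 in Δelav,fnenFNE. Mean elav CPM was 174, 576, 348 and 602 in the same order. By these means the other markers together were lower in the mutants than in wild type at 14-16 h. Their part in the results was not tested. At 7-8 h elav made up most of the sum in the control, which shows little about the other markers there. In Δelav,fnenFNE at 14-16 h, libraries c and d had 53.0% and 52.8% of the counts of a gene in its 3′ portion, as the median over genes, against 49.5% to 50.6% in the other embryos of that age, and library b of Δelav,fnenFNE heads had 60.6% against 52.3% to 55.0%. In whole embryos and heads, fewer cells of a type and less RNA per cell cannot be told apart.

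Usage of a small exon is given as the percent of its gene's counts that fell on it. A read that overlaps several bins counts in each, so this percent depends on the lengths of both and is not a percent spliced in. Changes are log2 fold changes of the bin relative to the other bins of its gene, with edgeR's quasi-likelihood test of exon usage, and an exon was called when its p, adjusted over all bins tested, was under 0.01. A filter on low counts left 781 small exons tested in at least 1 comparison. The other 294 were tested in none, 21 of which had no count in any library. Of the 1075, 78 were called in a mutant against its control, 391 between 2 ages, 70 in both kinds and 675 in none of the 17 comparisons. These counts were not made over all bins, so they are not shown to be particular to small exons. Both kinds of comparison share libraries, so the 70 are not independent agreement. The share of all bins called is given with each comparison.

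The first comparison asks which small exons change when ELAV is missing. In Δelav embryos at 14-16 h, 28 small exons were used less and 15 more than in wild type, out of 623 tested (6.90%). Of all tested bins 1.51% were called, 0.498% higher and 1.01% lower. The 28 included small exons of synaptic genes (cpx, unc-13, Spn), of calcium and proton pumps (PMCA, Vha100-1), of adhesion and matrix genes (Fas1, ed, Mp) and of the genes of troponin T and talin (up, rhea). The 15 included those of Sap47, side-VIII, CG42268, Rbp9 and fne. The median log2 fold change of the tested small exons was 0.001 and that of all bins 0.00. The study itself dropped some earlier 3′ UTR targets of ELAV as false positives, because the strains varied in genetic background. The part of background in the calls given here was not tested.

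The shortest exons were called most often. In Δelav embryos 28.3% of tested isolated bins of 3 to 12 nt were called, 10.8% of those of 13 to 27 nt, 3.55% of 28 to 39 nt, 4.32% of 40 to 51 nt, 1.44% of 52 to 99 nt and 0.816% of 100 nt or more. Of 148 tested up to 27 nt, 18 were lower and 6 higher, and of 475 of 28 to 51 nt, 10 were lower and 9 higher. Whether direction differs with length was not tested. Between wild-type heads and embryos the shares called were 55.8%, 41.1%, 33.5%, 21.8%, 14.5% and 11.5% in the same order, and in elavmin embryos 14.6%, 2.86%, 2.02%, 2.77%, 1.01% and 0.726%. Longer bins had more counts, with a median mean count of 42.9 in the shortest class and 172.8 in the longest in the Δelav comparison, and the part of depth in this order was not tested. Annotated skipping also fell with length. A transcript skipped 75.5% of small exons up to 27 nt, 48.7% of those of 28 to 51 nt and 13.5% of longer isolated bins. The part of skipping in this order was not tested either. The step at 51 nt was not sharp, since 2.56% of tested bins of 49 to 51 nt and 2.83% of those of 52 to 54 nt were called in Δelav, and 22.3% and 16.8% between wild-type ages.

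**Figure D1:**
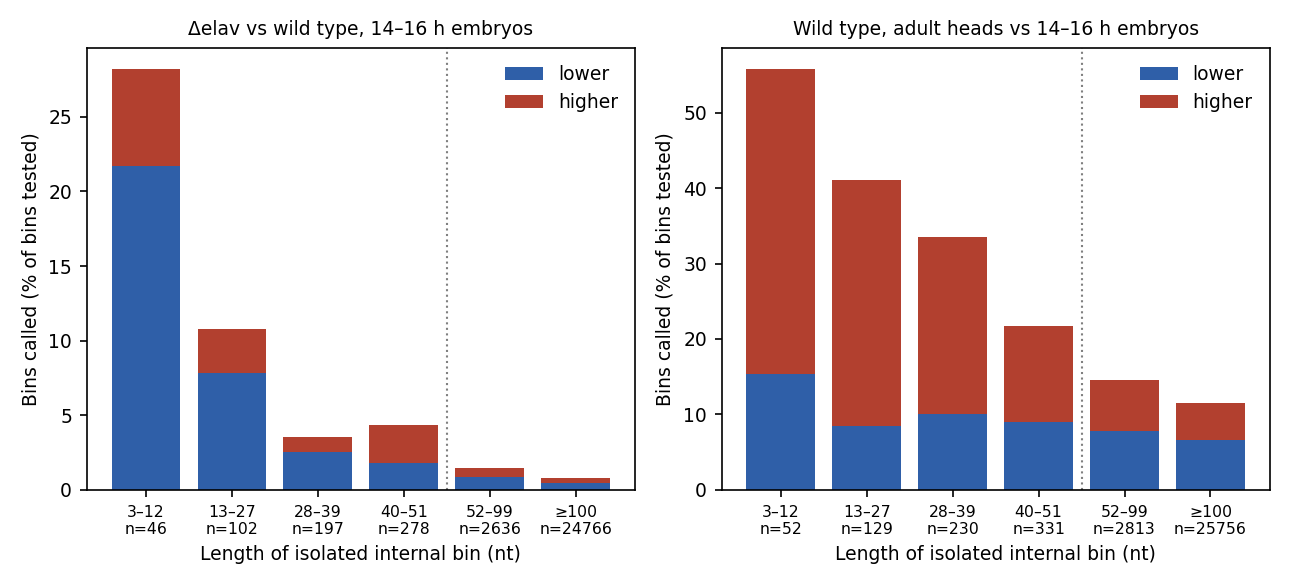
Percent of tested isolated internal bins called (y axis) by length class in nt (x axis, with the number tested), for Δelav against wild type embryos (left) and wild-type heads against embryos (right). Bars stack lower and higher calls, the dotted line marks the limit of 51 nt, and the share falls from 28.3% at 3 to 12 nt to 0.816% at 100 nt or more on the left and from 55.8% to 11.5% on the right.

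Of the 28 lower exons, 22 (78.6%) were a multiple of 3 and 27 (96.4%) were skipped by an annotated transcript, against 59.1% and 51.2% of the 623 tested. Of the 15 higher ones, 14 (93.3%) were a multiple of 3 and 10 (66.7%) were skipped. None of the 46 tested first exons was called. Skipping was not particular to called small exons. Of the 240 isolated bins over 51 nt called in Δelav 72.1% were skipped, against 13.5% of all 33283 such bins. TTTTTTT lay within 100 nt downstream of 5 of 26 lower internal exons (19.2%) and upstream of 1 (3.85%), and of the higher ones upstream of 3 of 15 and downstream of 0. Over all tested internal small exons these shares were 6.53% downstream and 9.88% upstream. The counts are small and are given as a description with no test.

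Small exons of cpx and PMCA, both of 12 nt, were lower in every Δelav library. The exon of cpx, which encodes complexin, a clamp and activator of vesicle release, held 0.343%, 0.396%, 0.280% and 0.453% of cpx counts in wild-type libraries a to d and 0.0909%, 0.170%, 0.127% and 0.0596% in Δelav. The groups did not overlap, and the log2 fold change was -1.67 ± 0.29 (SE, edgeR adjusted p = 6.64e-06). Exons were named for a large change only if their groups did not overlap. For those exons, here and below, the lack of overlap describes the values and is no separate support. For the exon of PMCA, the plasma membrane calcium pump, wild type gave 0.473%, 0.468%, 0.491% and 0.486% and Δelav 0.203%, 0.238%, 0.152% and 0.205%. All Δelav libraries were under the narrow wild-type range (-1.25 ± 0.14, adjusted p = 3.44e-13).

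Fas1 encodes fasciclin 1, a membrane-anchored adhesion protein. Its 36-nt exon (bin E017) held 0.554%, 0.653%, 0.558% and 0.621% of Fas1 counts in wild type and 0.0885%, 0.0479%, 0.0923% and 0.0979% in Δelav. The highest Δelav library was far under the lowest of wild type, with a log2 fold change of -2.85 ± 0.18 (SE, edgeR adjusted p = 9.44e-23). The 9-nt exon E010 went from 0.856%, 0.865%, 0.981% and 1.02% to 0.594%, 0.707%, 0.484% and 0.404%, again with no overlap (-0.76 ± 0.11, adjusted p = 0.000398). Without Δelav library d this call was lost (-0.64, adjusted p = 0.0228). The second 9-nt exon, E011, was rarer, at 0.200% ± 0.0347 in wild type and 0.0998% ± 0.0182 in Δelav (SD, n = 4 each), and its difference of -0.99 was not called (adjusted p = 0.0882).

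CD98hc encodes the heavy chain of an amino acid transporter. Of its counts, 1.47%, 1.49%, 1.21% and 1.10% in wild type fell on the 6-nt exon, and in Δelav 0.568%, 0.446%, 0.441% and 0.501%, without overlap (-1.43 ± 0.14, adjusted p = 8.93e-12 in edgeR). The 27-nt exon of Fer2LCH, the light chain of ferritin that stores iron, held 0.427%, 0.360%, 0.281% and 0.278% in wild type and 0.0749%, 0.185%, 0.109% and 0.0447% in Δelav. The groups did not overlap here either (-1.74 ± 0.27, adjusted p = 2.13e-06). The 27-nt exon of Moe, moesin, which links actin to the membrane, was rare in embryos, with 0.114%, 0.0827%, 0.0991% and 0.0926% in wild type and 0.0323%, 0.0267%, 0.0352% and 0.0358% in Δelav (-1.57 ± 0.22, adjusted p = 0.000141).

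The gene CG42268 carried small exons that moved in opposite directions. Its 9-nt exon E002 held 0.489%, 0.424%, 0.378% and 0.404% in wild type and 0.0733%, 0.156%, 0.162% and 0.156% in Δelav (-1.61 ± 0.28, edgeR adjusted p = 1.77e-05). Its 33-nt exon E008 held 0.201%, 0.184%, 0.348% and 0.287% in wild type and 0.531%, 0.50%, 0.721% and 0.434% in Δelav (1.10 ± 0.23, adjusted p = 0.00135). In both the groups were apart, but the call of E008 was lost without wild-type library a (adjusted p = 0.0161) or b (0.0210) or Δelav library c (0.0403).

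Sap47, a synapse-associated protein, had the gain with the smallest adjusted p among the 15. Its 48-nt exon held 0.478%, 0.536%, 0.618% and 0.600% of Sap47 counts in wild type, 2.09%, 2.21%, 2.34% and 2.27% in Δelav, 1.83%, 1.95%, 1.98% and 2.08% in elavmin and 0.928%, 0.952%, 0.696% and 0.738% in Δelav,fnenFNE. Every mutant library was above every wild-type library, and Δelav,fnenFNE lay between wild type and the other mutants. The log2 fold changes were 2.0 ± 0.11 in Δelav (SE, edgeR adjusted p = 3.81e-35) and 1.82 ± 0.11 in elavmin (adjusted p = 1.49e-32).

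Small exons of the ELAV family itself also rose. The 15-nt exon of Rbp9 held 2.02%, 1.5%, 1.87% and 2.24% of Rbp9 counts in wild type and 3.17%, 3.35%, 3.29% and 3.73% in Δelav (0.82 ± 0.14, edgeR adjusted p = 8.73e-05). The 45-nt exon of fne, an annotated exon and not the mini-exon that defines nuclear FNE, rose from 3.42%, 3.39%, 3.38% and 3.82% to 4.63%, 4.56%, 5.03% and 5.18% (0.47 ± 0.09, adjusted p = 0.000129). Against its neighbouring bins alone the fne change was 0.15 and was not called (adjusted p = 0.248). The 21-nt exon of side-VIII, a member of the Sidestep family of immunoglobulin surface proteins, rested on few reads, 6, 11, 1 and 4 in wild type and 17, 18, 24 and 20 in Δelav. Its log2 fold change was 1.83 ± 0.38 (adjusted p = 0.000442), and the call was lost without wild-type library d (adjusted p = 0.0116).

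The genes of troponin T and talin were also among those with lower exons. Troponin T (up), of the muscle thin filament, had 2 called small exons, of 24 and 3 nt. The 24-nt exon held 3.01%, 2.81%, 2.97% and 2.93% of up counts in wild type and 1.98%, 1.96%, 1.96% and 2.0% in Δelav, a narrow drop in every library (-0.57 ± 0.08, edgeR adjusted p = 2.92e-08). The 3-nt exon held 0.118%, 0.106%, 0.125% and 0.106% in wild type and 0.0594%, 0.0801%, 0.0602% and 0.0797% in Δelav (-0.71 ± 0.12, adjusted p = 3.45e-06). It is next to the 24-nt exon, and against its neighbours the difference was -0.13 (adjusted p = 0.755). The 26-nt exon of rhea, which encodes talin, an integrin-binding protein of muscle attachment, fell from 0.204%, 0.165%, 0.160% and 0.161% to 0.0941%, 0.0679%, 0.0887% and 0.120% without overlap (-0.90 ± 0.16, adjusted p = 1.27e-05). Summed CPM of 10 muscle markers were 56400 to 57900 in wild-type embryos and 58200 to 62000 in the mutants, and their part in these values was not tested.

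The remaining large drops were in genes of other kinds. The 36-nt exon of CG46339 held 0.352%, 0.400%, 0.356% and 0.371% in wild type and 0.0261%, 0, 0 and 0.0239% in Δelav (-4.62 ± 0.54, edgeR adjusted p = 3.64e-11). The 36-nt exon of fon, which encodes the clotting protein fondue, fell from 2.54%, 2.98%, 2.98% and 2.60% to 1.14%, 1.01%, 1.04% and 1.13% (-1.36 ± 0.12, adjusted p = 1.15e-13). In both genes every Δelav library was under every wild-type library. For bru1, an RNA-binding splicing regulator, the 12-nt exon fell from 2.02%, 1.76%, 1.20% and 1.85% to 0.666%, 0.830%, 0.593% and 0.597% (-1.33 ± 0.30, adjusted p = 0.00161). That call was lost in 5 of 8 fits that left out 1 library, with adjusted p up to 0.0197 without wild-type library a.

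A 46-nt bin of Uhg1, a non-coding host gene of small nucleolar RNAs, held 3.64%, 3.83%, 3.88% and 3.61% of its counts in wild type, 3.54%, 4.23%, 2.71% and 3.76% in elavmin and 0 in all 4 Δelav libraries. Relative to a floor of 3 counts over the 849 counts of the gene in Δelav, its share was at least 10.6-fold lower there than in wild type. In Δelav,fnenFNE it was 1.37%, 1.35%, 3.88% and 1.51%, with library c at the wild-type level. Relative to the neighbouring bins, the Δelav change was not called (-1.86, edgeR adjusted p = 0.121).

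**Figure D2:**
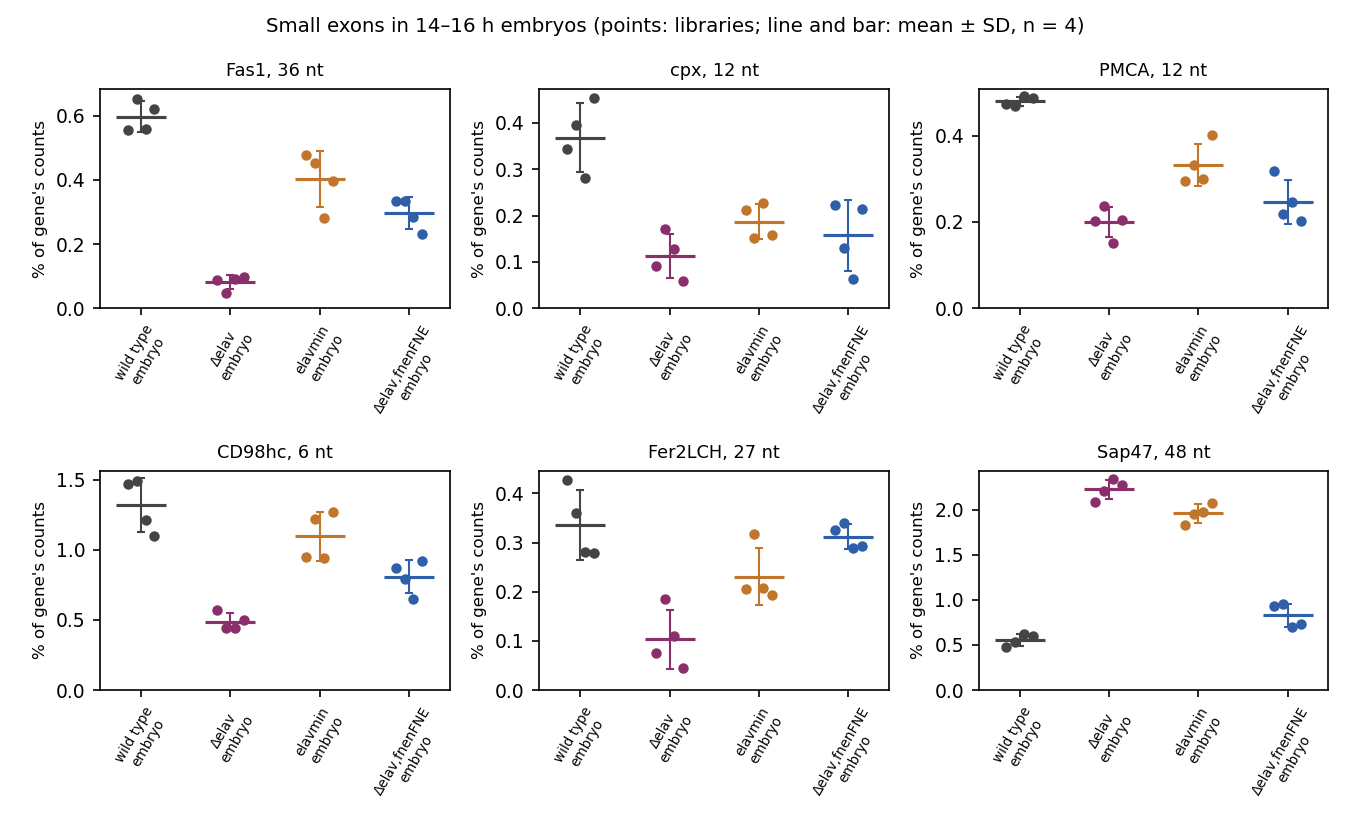
Percent of the gene's counts on 6 small exons (y axes) in every 14-16 h library of 4 genotypes (x axes). Points are libraries, and the line and bar are the mean and SD (n = 4). The Δelav points lie under every wild-type point for Fas1, cpx, PMCA, CD98hc and Fer2LCH and above them for Sap47. Lack of overlap was a condition for naming exons by a large change.

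The next comparisons ask whether a low level of truncated ELAV, or nuclear FNE made without ELAV, changes the same exons in embryos. In elavmin embryos 13 small exons were higher and 9 lower of 640 tested (3.44%), and of all bins 1.39%, with 0.544% higher and 0.848% lower. In Δelav,fnenFNE embryos 7 were higher and 6 lower of 636 (2.04%), and of all bins 0.705%, with 0.363% higher and 0.342% lower. These comparisons share the wild-type libraries with that of Δelav, so their values are given side by side. For cpx the log2 fold changes were -1.67 in Δelav, -1.0 in elavmin and -1.16 in Δelav,fnenFNE, all called. For PMCA they were -1.25, -0.53 and -0.96, all called, and for the 24-nt exon of up -0.57, -0.62 and -0.62, all called. For the 36-nt exon of Fas1 they were -2.85, -0.57 and -1.0, of which the elavmin value was not called. The elavmin call of cpx was lost in 6 of 8 fits without 1 library, with adjusted p up to 0.0904 without wild-type library d, and its Δelav,fnenFNE call in 4 of 8, with adjusted p up to 0.163 without mutant library c. The elavmin call of PMCA was lost in 4 of 8, with adjusted p up to 0.0362 without elavmin library a.

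In elavmin the 12-nt exon of cpx held 0.211%, 0.151%, 0.227% and 0.158%, and in Δelav,fnenFNE 0.223%, 0.130%, 0.0622% and 0.215%, all under the lowest wild-type library. PMCA gave 0.296%, 0.331%, 0.299% and 0.402% in elavmin and 0.319%, 0.218%, 0.247% and 0.202% in Δelav,fnenFNE, also all under wild type. Fas1 E017 gave 0.479%, 0.454%, 0.280% and 0.398% in elavmin and 0.335%, 0.334%, 0.286% and 0.233% in Δelav,fnenFNE, between the wild-type and Δelav ranges. For this exon the Δelav,fnenFNE call had an edgeR adjusted p of 0.00129 and was lost without both shifted libraries c and d (-0.83). It was also lost in 3 of 8 fits without 1 library, with an adjusted p of 0.0169 without wild-type library b, 0.0110 without wild-type library d and 0.0237 without Δelav,fnenFNE library d.

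Mutants were also compared with one another. Of 598 tested small exons, 11 were higher and 1 lower in elavmin than in Δelav, and of all bins 0.361% were called, 0.243% higher and 0.118% lower. Of 607 tested, 8 were higher and 3 lower in Δelav,fnenFNE than in Δelav, and of all bins 0.604%, with 0.497% higher and 0.107% lower. The 36-nt exon of Fas1 was higher in elavmin by 2.28 ± 0.23 (SE, log2, edgeR adjusted p = 4.04e-10) and in Δelav,fnenFNE by 1.85 ± 0.30 (adjusted p = 3.26e-05). Fer2LCH was higher in Δelav,fnenFNE than in Δelav by 1.63 ± 0.27 (adjusted p = 7.15e-05). Its libraries were at 0.326%, 0.340%, 0.289% and 0.293%, inside the wild-type range. Sap47 was lower in Δelav,fnenFNE than in Δelav by -1.42 ± 0.12 (adjusted p = 2.70e-19). The exons of CD98hc (1.17) and PMCA (0.72) were higher in elavmin than in Δelav, but the PMCA call was lost in 4 of 8 fits that left out 1 library.

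The 48-nt exon of PCB, pyruvate carboxylase, a mitochondrial enzyme, went both ways. It held 0.905%, 0.848%, 0.988% and 1.15% of PCB counts in wild type, 0.562%, 0.444%, 0.521% and 0.441% in Δelav and 1.61%, 1.20%, 1.72% and 1.52% in Δelav,fnenFNE. Δelav libraries were all under and Δelav,fnenFNE libraries all over those of wild type. The changes were -1.0 ± 0.14 (SE, edgeR adjusted p = 2.99e-07) and 0.63 ± 0.11 (adjusted p = 0.00656), and the second was lost in 6 of 8 fits without 1 library.

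Adult heads answer whether the surviving mutants use the small exons of the mature nervous system. In elavmin heads 11 small exons were higher and 11 lower than in wild type, of 663 tested (3.32%), and of all bins 0.919%, with 0.497% higher and 0.423% lower. In Δelav,fnenFNE heads 4 were higher and 22 lower of 660 (3.94%), and of all bins 0.995%, with 0.443% higher and 0.552% lower. The median log2 fold change was -0.146 over the tested small exons and -0.035 over all bins. Without library b of Δelav,fnenFNE heads, which was shifted toward 3′ ends, 6 were higher and 28 lower of 673, and all 26 calls were kept. The called genes included the chloride channel ClC-a, the sodium pump subunit nrv3, the proton channel OtopLa and the potassium channel eag. They also included the protein kinase C gene Pkc53E and the phototransduction genes norpA, rdgA and rdgB. Summed CPM of 12 photoreceptor markers were 78700 to 84100 in wild-type heads, 44700 to 45600 in elavmin and 595 to 652 in Δelav,fnenFNE, where 1 of the 12 was under 1 CPM in every library. Muscle markers were 9970 to 12300, 11400 to 13500 and 17500 to 17900, and glia markers 2900 to 3100 in wild type and 3630 to 4050 in the mutants. Their part in the head results was not tested.

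The 6-nt exon of nrv3, which encodes the beta subunit of the sodium-potassium pump, held 1.60%, 1.52% and 1.67% of nrv3 counts in wild-type heads. It held 0.265%, 0.206% and 0.309% in elavmin and 0.0402%, 0.110% and 0.0318% in Δelav,fnenFNE. The 3 genotypes did not overlap, and the log2 fold changes were -2.62 ± 0.13 (SE, edgeR adjusted p = 1.40e-23) and -4.66 ± 0.27 (adjusted p = 5.24e-21). OtopLa encodes an otopetrin, a proton channel, and its 21-nt exon held 1.14%, 1.16% and 1.13% in wild type, 0.319%, 0.335% and 0.199% in elavmin and 0.107%, 0.118% and 0.142% in Δelav,fnenFNE. Here too the genotypes fell in 3 separate ranges, with changes of -2.01 ± 0.19 (adjusted p = 4.75e-15) and -3.24 ± 0.30 (adjusted p = 4.84e-16).

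ClC-a, a chloride channel, has a run of 3 small exons, of 30, 36 and 45 nt, on chromosome 3R, each skipped by 4 and included by 3 annotated transcripts. The 30-nt exon held 1.65%, 1.96% and 1.73% in wild-type heads, 0.105%, 0.231% and 0.158% in elavmin and 0.0171%, 0.0818% and 0.115% in Δelav,fnenFNE. Wild type was apart from both mutants, which overlapped each other, and the changes were -3.38 ± 0.27 (SE, edgeR adjusted p = 4.32e-18) and -4.76 ± 0.30 (adjusted p = 1.39e-23). The 36-nt and 45-nt exons changed by -4.04 and -2.95 in elavmin and by -3.94 and -3.87 in Δelav,fnenFNE. The 45-nt exon is a neighbour of the 36-nt exon, whose changes against its neighbouring bins were -0.62 and 0.02.

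Slob encodes a protein that binds the Slowpoke potassium channel. Its 12-nt exon held 0.0710%, 0.0509% and 0.0695% of Slob counts in wild-type heads, 1.65%, 1.31% and 1.71% in elavmin heads and 0.0408%, 0.0503% and 0.0741% in Δelav,fnenFNE heads. Only the elavmin heads stood apart, by 4.58 ± 0.20 (SE, log2, edgeR adjusted p = 3.46e-38). In embryos the same exon held 0.535%, 0.567%, 0.321% and 0.336% in wild type and 1.37%, 0.881%, 0.896% and 1.14% in elavmin. Heads differed from embryos by -2.81 in wild type (adjusted p = 1.30e-08) and by 0.55 in elavmin (adjusted p = 0.0550). The change in elavmin differed between heads and embryos by 3.36 ± 0.43 (adjusted p = 2.25e-10).

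Moe is a case where the reference matters. Its 27-nt exon held 2.14%, 2.42% and 1.96% of Moe counts in wild-type heads, 0.539%, 0.549% and 0.603% in elavmin and 0.490%, 0.568% and 0.697% in Δelav,fnenFNE, apart from wild type in both. Relative to the whole gene it fell by 1.95 on the log2 scale in elavmin heads (SE 0.10, edgeR adjusted p = 3.77e-27) and by 1.91 in Δelav,fnenFNE heads. Relative to its neighbouring bins, it rose in Δelav,fnenFNE by 1.74 (adjusted p = 0.000279) and was 0.49 higher in elavmin (adjusted p = 0.0380). The lower share relative to the whole gene was thus not particular to the 27-nt bin.

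CD98hc and cpx, already lower in Δelav embryos, were lower in elavmin heads. The 6-nt exon of CD98hc held 4.49%, 4.48% and 4.92% in wild type and 2.87%, 2.73% and 2.27% in elavmin (-0.83 ± 0.17, edgeR adjusted p = 0.00287), with the call lost in 4 of 6 fits without 1 library and an adjusted p of up to 0.0731 without elavmin library c. The cpx exon held 2.83%, 2.69% and 2.88% in wild type, 1.90%, 2.07% and 1.90% in elavmin and 1.02%, 0.958% and 1.34% in Δelav,fnenFNE. The genotypes were in 3 separate ranges, with changes of -0.51 ± 0.11 (adjusted p = 0.00383) and -1.37 ± 0.25 (adjusted p = 5.23e-05). The elavmin call was lost in 5 of 6 fits without 1 library, with an adjusted p of up to 0.117 without elavmin library c. Sap47 rose in elavmin heads as it had in embryos, from 0.0803%, 0.0849% and 0.0824% to 0.324%, 0.298% and 0.303% (1.89 ± 0.19, adjusted p = 1.29e-13).

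Other small exons were called in Δelav,fnenFNE heads and were not called in elavmin heads. That of Pkc53E, a protein kinase C, held 0.545%, 0.742% and 0.821% in wild type, 0.874%, 0.702% and 0.542% in elavmin and 0.0219%, 0.0165% and 0 in Δelav,fnenFNE (27 nt, -5.44 ± 0.44 in the last, edgeR adjusted p = 7.01e-18). The 51-nt exon of eag, a voltage-gated potassium channel, held 0.627%, 0.678% and 0.925% in wild type, 0.362%, 0.179% and 0.612% in elavmin and 0.0189%, 0 and 0 in Δelav,fnenFNE (-5.78 ± 0.87, adjusted p = 6.00e-07). Both were near 0 in Δelav,fnenFNE while elavmin overlapped wild type for Pkc53E, and for eag all 3 elavmin libraries were under the lowest of wild type. The 45-nt exon of norpA, the phospholipase C of phototransduction, was higher in Δelav,fnenFNE, with 1.21%, 1.06% and 1.55% against 0.305%, 0.362% and 0.324% in wild type and 0.402%, 0.442% and 0.392% in elavmin (1.94 ± 0.26, adjusted p = 2.99e-08). The difference between the mutants was not tested in heads. The photoreceptor markers given above also differed between the genotypes in heads, and their part in these values was not tested.

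The 15-nt exon of Rbp9 also went down in Δelav,fnenFNE heads, to 0.346%, 0.765% and 0.920% from 2.45%, 2.39% and 2.33% in wild type (-1.87 ± 0.20, edgeR adjusted p = 1.21e-10). In elavmin heads it was at 2.73%, 2.89% and 2.77%. In embryos of Δelav,fnenFNE, by contrast, it was at 3.64%, 2.63%, 3.44% and 3.63%, above wild type, and the change differed between ages by -2.68. Against the neighbouring bins the drop in heads was -1.43 (adjusted p = 0.199).

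**Figure D3:**
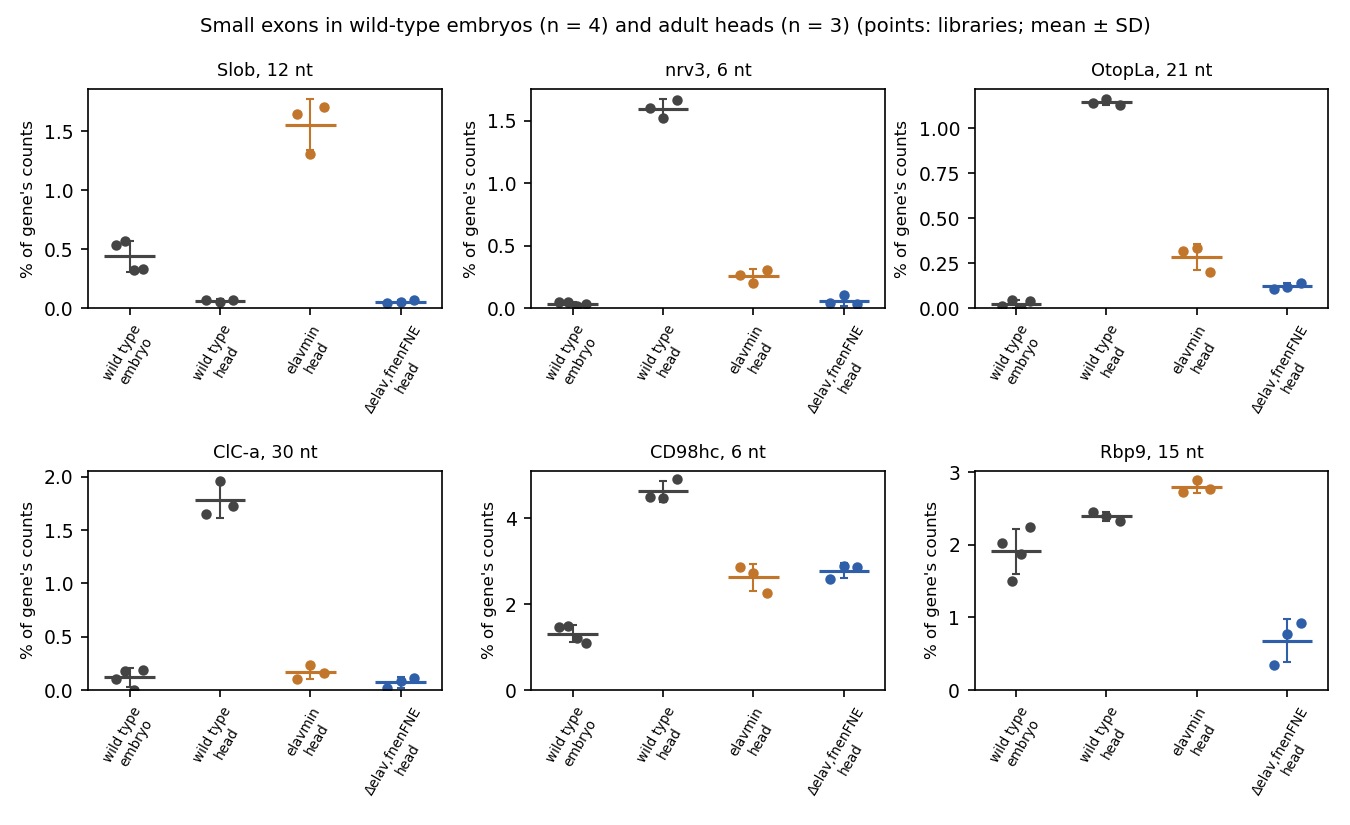
Percent of the gene's counts on 6 small exons (y axes) in wild-type embryos (n = 4) and in heads of 3 genotypes (n = 3 each, x axes). Points are libraries, and the line and bar are the mean and SD. Slob stands apart in elavmin heads, and nrv3 falls from a mean of 1.60% in wild-type heads to 0.260% in elavmin and 0.0606% in Δelav,fnenFNE, in libraries that also differ in photoreceptor markers.

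The last mutant comparisons ask what changes at 7-8 h, when neurons begin to differentiate. Of 343 tested small exons, 2 were lower in Δelav,fnenFNE than in the fnenFNE control (0.583%), and of all bins 0.634% were called, 0.413% higher and 0.222% lower. Both had also been lower in Δelav at 14-16 h, in other libraries. The exon of rhea held 0.116%, 0.115%, 0.0774% and 0.0903% in the control and 0.0107%, 0.0156%, 0.0131% and 0.0169% in Δelav,fnenFNE (-2.79 ± 0.40, edgeR adjusted p = 5.36e-07), on 2 or 3 reads in each mutant library. The 9-nt exon E010 of Fas1 held 0.344%, 0.317%, 0.290% and 0.245% in the control and 0.0796%, 0.138%, 0.0609% and 0.0468% in the mutant (-1.88 ± 0.28, adjusted p = 8.79e-06). In elavmin,fnenFNE it was at 0.156%, 0.180%, 0.130% and 0.113% and in elavnFNE at 0.185%, 0.181%, 0.157% and 0.269%, and neither was called.

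In elavmin,fnenFNE no small exon of 352 was called by edgeR at 7-8 h, nor by DESeq2, with 16 at an unadjusted p under 0.05 and of all bins 0.153% called, 0.051% higher and 0.102% lower. In elavnFNE 1 of 351 was called, lower than in the control and lost in 7 of 8 fits without 1 library, and of all bins 0.313%, with 0.12% higher and 0.193% lower. Between the mutants, no small exon of 338 was called in elavmin,fnenFNE against Δelav,fnenFNE by edgeR, with 7 at an unadjusted p under 0.05, and DESeq2 called 0. Of all bins 0.108% were called, 0.0315% higher and 0.0766% lower. In elavnFNE against Δelav,fnenFNE edgeR also called 0, with 15 at an unadjusted p under 0.05, and DESeq2 called 1. Of all bins 0.294% were called, 0.14% higher and 0.154% lower.

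Age changed far more small exons than genotype did. Between wild-type heads and wild-type embryos of 14-16 h, 159 small exons were higher in heads and 72 lower, of 742 tested (31.1%), and of all bins 14.5%, with 7.42% higher and 7.07% lower. The counts in elavmin were 142 and 66 of 719 (28.9%), and of all bins 11.9%, with 6.29% higher and 5.61% lower. In Δelav,fnenFNE they were 119 and 51 of 722 (23.5%), and of all bins 8.88%, with 4.71% higher and 4.18% lower. Whole embryos and heads differ in their tissues, so tissue and age cannot be told apart. An exon that passed the filter only through the age where it is high had to differ, which touches the exons near 0 in embryos.

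The wild-type and elavmin comparisons share no library. Of 707 small exons tested in both, 173 were called in both, all 173 in the same direction, 80 in 1 and 454 in neither. Over the 3 genotypes 129 of 691 were called in each, 128 of them in the same direction and 95 of these higher in heads. These counts were not made over all bins, so the agreement is not shown to be particular to small exons.

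**Figure D4:**
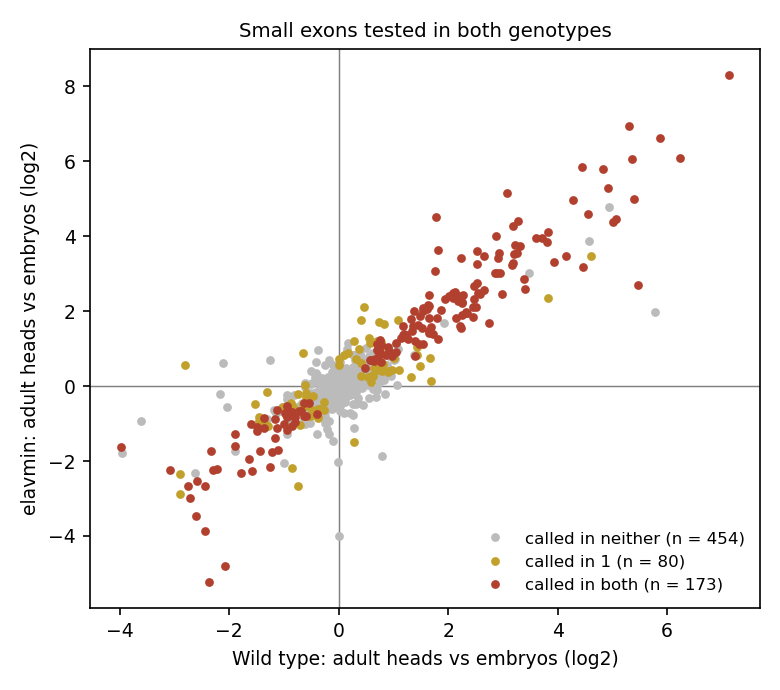
Log2 fold change of heads against 14-16 h embryos in wild type (x axis) and in elavmin (y axis) for the 707 small exons tested in both. Red points are the 173 called in both, all in the quadrants of equal sign, ochre points the 80 called in 1 and grey points the 454 called in neither.

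The 3-nt exon of up, GAA, was higher in heads than in embryos in every genotype. It held 0.118%, 0.106%, 0.125% and 0.106% of up counts in wild-type embryos and 3.82%, 3.2% and 3.44% in wild-type heads, a difference of 4.93 ± 0.13 (SE, log2, edgeR adjusted p = 3.15e-62). The gene's own total fell from between 182894 and 203675 counts to between 14008 and 17737, with the muscle markers lower in heads, and their part in this difference was not tested. The cpx exon went from at most 0.453% to at least 2.69% (2.92 ± 0.14, adjusted p = 1.52e-45). The second 9-nt exon of Fas1, E011, went from 0.200% ± 0.0347 (SD, n = 4) to 1.93% ± 0.146 (SD, n = 3), a change of 3.26 ± 0.13.

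Several exons were almost only read in heads. The 20-nt exon of cindr, an adaptor protein, had no read in the 4 wild-type embryo libraries and 23, 36 and 17 in heads, a share at least 43.2-fold higher relative to a floor of 3 counts over the embryo group. The 51-nt exon of eag was also at 0 in every embryo library and at least 21.3-fold higher in heads. The 48-nt exon of kis, a chromatin remodeller, had 2, 0, 1 and 0 reads in embryos and 51, 67 and 79 in heads, and the 33-nt exon of para, the voltage-gated sodium channel, 2, 2, 2 and 0 against 33, 46 and 78. Their fitted changes were 5.87 and 4.28. With 0 to 2 reads in each embryo library, these exons and those of cindr and eag could pass the low-count filter only through heads. That they were higher in heads was therefore fixed by the filter. Of channels and adhesion genes, OtopLa (5.48), nrv3 (5.36), RyR (3.94) and Con (5.06 and 5.02 for 34 and 27 nt) were higher in heads. For the exons of Con, connectin, the change against the neighbouring bins was 0.31 and -0.09, and they are neighbours of each other in the order of the bins.

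Fewer exons were lower in heads. Sap47 went from 0.558% ± 0.0640 (SD, n = 4) in wild-type embryos to 0.0826% ± 0.00228 (SD, n = 3), a change of -2.75. The 30-nt exon of heph, a polypyrimidine-tract-binding protein that represses exons, went from 0.312%, 0.349%, 0.296% and 0.248% to 0.0589%, 0.0364% and 0.0123% (-3.08), without overlap. Those of norpA (-2.23), Slob (-2.81) and bru1 (-1.30) were lower as well, and without wild-type head library c the bru1 call was lost (-1.12, edgeR adjusted p = 0.0270).

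Between 7-8 h and 14-16 h, 167 small exons were higher and 31 lower in wild type than in the fnenFNE control, of 625 tested (31.7%), and of all bins 16.9%, with 10.6% higher and 6.32% lower. In Δelav,fnenFNE 118 were higher and 18 lower of 558 (24.4%), and of all bins 12.5%, with 7.67% higher and 4.79% lower. Relative to the neighbouring bins the split was 127 higher and 69 lower in the first comparison, with 125 of the 198 calls shared, and 99 and 52 in the second, with 94 of the 136 shared. The 36-nt exon of Fas1 rose from 0.0346% ± 0.0193 in the control to 0.597% ± 0.0487 (SD, n = 4 each), a log2 change of 3.99 ± 0.24 (SE, edgeR adjusted p = 7.60e-32), and the PMCA exon from 0.0850% ± 0.0108 to 0.479% ± 0.0110 (2.49 ± 0.21, adjusted p = 5.28e-23). CD98hc rose from 0.263% ± 0.0467 to 1.32% ± 0.194 (2.31 ± 0.27). The wild-type and control genotypes differ at fne as well as in age and read length.

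The exons that Δelav embryos used less were, for the most part, those that heads used more. Of the 28, 22 were called higher in elavmin heads than in elavmin embryos and 0 lower, with a median log2 fold change of 1.24 against -0.01 over all tested small exons, of which 19.7% were called higher. That comparison shares no library with Δelav against wild type. Of the 15 that were higher in Δelav, 4 were called lower and 0 higher, with a median of -0.17, where 9.18% of all tested small exons were called lower. In elavmin heads against wild type, 23 of the 28 were negative and 3 were called lower (Moe, cpx and CD98hc), and of the 13 tested of the other 15 all 13 were positive and 4 were called higher (Sap47, Gprk2, Mical and a 3-nt exon of sowah). Of all 663 small exons tested there, 323 were positive and 1.66% were called in each direction. Several of the exons counted share a gene and its total (Fas1, up, CG42268, Mp, bru1 and sowah), so they are not independent. Against its neighbouring bins the Moe exon was higher in elavmin heads and not lower. The calls of cpx and CD98hc in elavmin heads were lost in most fits without 1 library. Neuron markers other than elav were together lower in Δelav than in wild-type embryos by group mean, and their part in these counts was not tested.

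**Figure D5:**
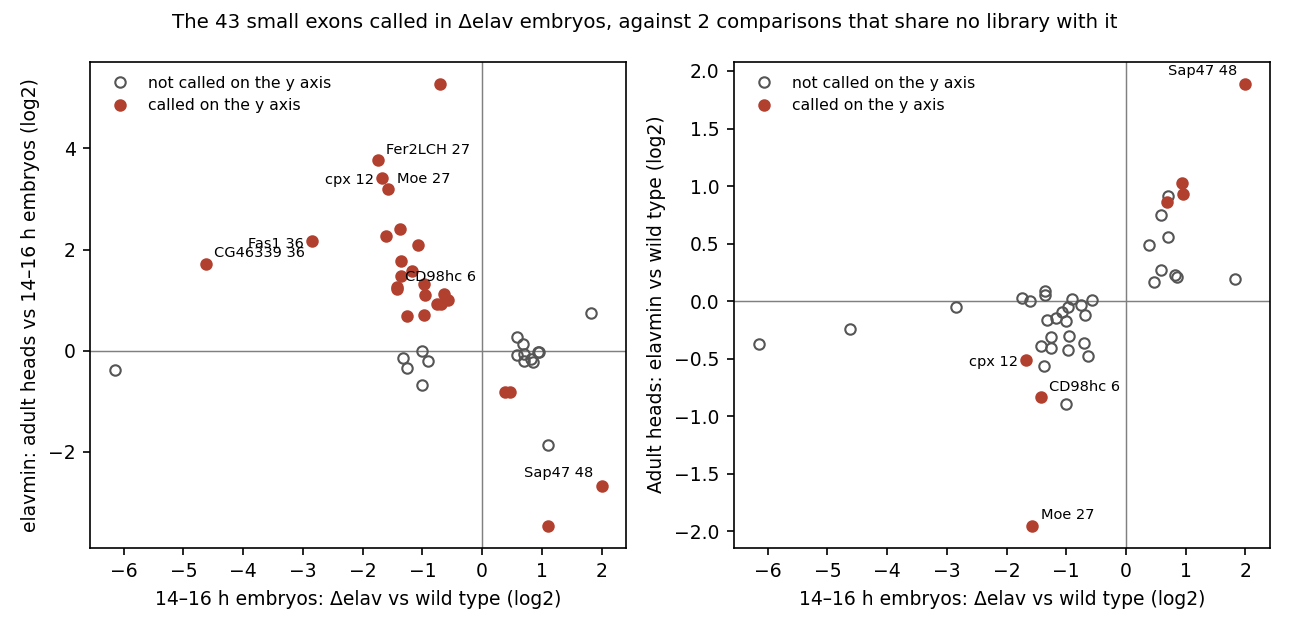
The 43 small exons called in Δelav embryos, with their log2 fold change against wild type on both x axes. The y axes give the log2 fold change of elavmin heads against elavmin embryos (left) and of elavmin against wild-type heads (right), and filled points are called there. On the left 22 of the 28 exons lower in Δelav are called above 0, and on the right 3 of them are called below 0 and 4 of the others above 0.

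Genes with small exons were grouped by role, and each group is given by how many of its tested small exons rose and fell. Over all tested small exons 2.41% were called higher and 4.49% lower in Δelav embryos, 1.66% each way in elavmin heads, 0.606% and 3.33% in Δelav,fnenFNE heads, and 21.4% and 9.70% in wild-type heads against embryos. The groups hold few tested exons and are to be read against these shares. Among cell adhesion and axon guidance genes, with 21 small exons in 13 genes, 2 rose and 2 fell of 15 tested in Δelav embryos, 1 and 0 of 18 in elavmin heads, 1 and 0 of 18 in Δelav,fnenFNE heads, and 10 and 0 of 19 were higher and lower in wild-type heads than in embryos. Among genes of ion channels and their regulators the numbers were 0 and 1 of 25, 1 and 4 of 36, 0 and 5 of 35, and 12 and 6 of 36. The lists were not tested against one another. Among synaptic genes they were 1 and 2 of 23, 1 and 1 of 27, 0 and 1 of 27, and 9 and 6 of 27.

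Among cytoskeletal genes 0 rose and 1 fell of 21 in Δelav embryos, 1 and 1 of 23 in elavmin heads, 1 and 3 of 23 in Δelav,fnenFNE heads, and 12 and 2 of 24 differed between wild-type ages. Signalling genes had 1 and 0 of 18, 0 and 0 of 23, 1 and 4 of 24, and 8 and 2 of 24. RNA-binding protein genes had 2 and 2 of 22, 0 and 0 of 19, 0 and 1 of 19, and 5 and 8 of 24, with more lower than higher in heads. Muscle genes had 0 and 2 of 18, 1 and 0 of 15, 0 and 0 of 16, and 2 and 1 of 18, and transcription and chromatin genes 1 and 0 of 14, 0 and 0 of 13, 0 and 0 of 13, and 6 and 0 of 19.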

How the data were processed

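The deposited values are raw counts per bin, which the authors obtained with HTSeq on the exon bins of Ensembl 96 after mapping to dm6. STAR, featureCounts and Subread are the tools named in the submitters' processing notes, without versions. The same tables hold the authors' DEXSeq log2 fold changes and p-values, which were not used. Columns that occurred in several tables (19) were identical and used once. All 11 groups came from the labelled genotype and age, and the labels do not say that letters mark separate crosses, so p-values measure the spread between these samples.

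The members and gene lists were chosen with earlier results of these data known. Bins were tested with edgeR 4.0.16 (R 4.3.3, limma 3.58.1) by robust quasi-likelihood fits and the exon usage test on TMM-normalized counts of the groups compared, with edgeR's filter on low counts and Benjamini-Hochberg adjustment over all bins tested. An adjusted p under 0.01 was called, the tests were two-sided, and the SE was taken as the size of the log2 fold change over the square root of the F statistic. The difference of a change between ages was an interaction in a single fit over both ages. The scripts were tested on simulated data. Other steps used the R package data.table (1.17.8), Python 3.11.15, pandas 2.3.3, NumPy 2.4.6 and matplotlib 3.10.9. Counts on bins ranged from 17668742 to 51377771 per library, and bounds and shares from few reads carry counting error only.

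Named were the exons past the threshold with a mean count of at least 10 and no overlap between groups, the 10 with the largest change for Δelav embryos and for wild-type heads against embryos and the 5 for every other comparison, all tested small exons of elav, fne, Rbp9, Nrg, ewg, arm, Dscam1, Fas1, Srrm234 and Slob, and up to 4 per list. Other names, such as unc-13, Spn, Vha100-1, ed, Mp, Gprk2, Mical, sowah, rdgA and rdgB, were chosen after their values were seen. Small exons in merged genes (87) were kept. Annotation came from a later Ensembl release on the same assembly, and 1067 of 1075 small exons had a symbol there.

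Alternatives were size factors of DESeq2, a single fit for all groups of an age, no low-count filter, a block for the replicate letter, an adjusted p under 0.05, merged genes left out, DESeq2 1.42.0's likelihood ratio test, the neighbouring bins as the reference (log2 ratio with a pseudocount of 0.5, tested with limma), and leaving out each library. Leaving out both shifted Δelav,fnenFNE embryo libraries was added after seeing the data. The small exon called in elavnFNE at 7-8 h is counted and not reported here by name.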

Additional observations from a re-analysis of the deposited data

Results flagged for a closer look

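In 7 of 92 groups of 4 libraries checked for the named exons, 1 library stood apart from the others by Dixon's criterion, while chance flags about 1 in 20. In elavmin embryos the 9-nt exon E010 of Fas1 was lowest in 1 library, at 0.681% of the gene's counts, and Fer2LCH and PCB were highest in 1 library, at 0.317% and 1.01%. In wild-type embryos rhea was highest at 0.204% and fne at 3.82%. The 9-nt exon of CG42268 was lowest at 0.0733% in 1 Δelav library, and the 46-nt bin of Uhg1 was highest at 3.88% in 1 Δelav,fnenFNE embryo library. The Δelav calls of rhea, the CG42268 exon and Uhg1 were kept in each fit that left out 1 library.

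The change of a mutant against wild type differed between heads and 14-16 h embryos for 19 small exons by the interaction test of edgeR (adjusted p under 0.01). In elavmin 6 of 757 differed, where 0.378% of all bins did. The head change minus the embryo change was -3.73 (log2) for the 30-nt exon of ClC-a, -2.77 for OtopLa, -1.77 for the 36-nt exon of Nhe3, a sodium-proton exchanger, 0.63 for the 24-nt exon of up, 2.36 for the 36-nt exon of Mp, a multiplexin collagen, and 3.36 for the 12-nt exon of Slob. In Δelav,fnenFNE 13 of 776 differed, where 0.552% of all bins did. Of these 11 were negative. They were ClC-a (-5.13, -4.87 and -4.22 for the 30-nt, 36-nt and 45-nt exons), cindr (-4.94), nrv3 (-4.08), stmA (-3.12), rdgA (-2.88), Rbp9 (-2.68), the merged genes of unc-104 (-2.18) and tau (-2.01), and hppy (-1.51). The 36-nt exon of Fas1 (1.12) and a 33-nt exon of the merged genes CG6191 and CG45088 (1.68) were positive. An exon near 0 in embryos could pass the filter of this fit through heads alone. For such an exon a drop in heads shows as a difference between ages. The exon of cindr, without a read in wild-type embryos, is a case of this kind. Photoreceptor markers fell in the heads of both mutants, and their part in these differences was not tested.

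Several of these rested on single libraries. The elavmin difference of up was lost in 13 of 14 fits that left out 1 library, that of OtopLa in 6 and that of ClC-a in 3. In Δelav,fnenFNE, cindr was lost in 9 of 14, Fas1 in 4, nrv3 without embryo library b (-3.45, adjusted p = 0.114), the 36-nt exon of ClC-a without embryo library a (-4.55, adjusted p = 0.0350) and the 45-nt exon without a (-3.86, adjusted p = 0.0423) or b (-4.02, adjusted p = 0.0112).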

How the results depend on the processing

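For 274 log2 fold changes of named exons, 4286 alternative values were computed. Of these 3986 kept their direction and call, 283 kept the direction and lost the call, and 17 changed sign. All 17 changed sign when the neighbouring bins replaced the rest of the gene as reference. They were CG4629 (-2.52 and -2.73 between embryo ages), the 36-nt exon of ClC-a (0.02 in Δelav,fnenFNE heads), the Con exons between heads and embryos (34 nt: -0.11 and -0.63 in elavmin and Δelav,fnenFNE; 27 nt: -0.09, -1.65 and -0.73 in wild type, elavmin and Δelav,fnenFNE), Fhos (-1.37), fne (0.11 and 0.07 between heads and embryos), the 43-nt exon of fz2 (-0.07 and -0.10), its 45-nt exon (-0.17), heph (-0.13 in Δelav,fnenFNE embryos) and Moe (0.49 and 1.74 in elavmin and Δelav,fnenFNE heads). The cause was not tested.

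Counts of called small exons moved by over 1.5 times as follows. With neighbouring bins they were 28 in place of 43 in Δelav embryos, 10 in place of 22 in elavmin embryos, 8 in place of 13 in Δelav,fnenFNE embryos, 7 in place of 12 for elavmin against Δelav and 7 in place of 11 for Δelav,fnenFNE against Δelav. Between embryo ages that reference kept the totals within 1.5 times (196 and 151 in place of 198 and 136) and raised the exons called lower from 31 to 69 in wild type against the control and from 18 to 52 in Δelav,fnenFNE. With a single fit over an age they were 14 in elavmin embryos and 13 in place of 22 in elavmin heads. With an adjusted p under 0.05 they were 21 in Δelav,fnenFNE embryos, 2 in place of 0 for elavnFNE against Δelav,fnenFNE and 20 in place of 13 for the Δelav,fnenFNE interaction. DESeq2's likelihood ratio test called 1 in place of 0 for elavnFNE against Δelav,fnenFNE, and without both shifted libraries 8 were called in Δelav,fnenFNE embryos.

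Leaving out 1 library at a time gave 35 to 43 calls in Δelav embryos, 13 to 20 in elavmin embryos, 7 to 14 in Δelav,fnenFNE embryos, 13 to 19 in elavmin heads, 19 to 34 in Δelav,fnenFNE heads, 2 for Δelav,fnenFNE and 0 to 1 for elavnFNE at 7-8 h, 9 to 14 for elavmin and 8 to 12 for Δelav,fnenFNE against Δelav, and 3 to 6 and 9 to 15 for the interactions. Between heads and embryos it gave 211 to 223 in wild type, 176 to 196 in elavmin and 145 to 181 in Δelav,fnenFNE, and between embryo ages 180 to 194 and 124 to 138.

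Pairing of the samples by replicate letter was not shown. Same-letter libraries had correlations of -0.41 to 0.33 at 14-16 h, -0.21 to 0.26 in heads and -0.28 to 0.48 at 7-8 h. Those above 0.1 were not all of them (8 of 24, 4 of 9 and 5 of 24). Libraries of other letters had -0.41 to 0.38, -0.31 to 0.22 and -0.38 to 0.34 in the same order. These correlations cannot exclude pairing of some libraries. With the letter as a replicate block, 44 were called in Δelav embryos, 26 in elavmin heads, 26 in Δelav,fnenFNE heads and 212 in place of 231 between wild-type heads and embryos. The largest loss among the comparisons was in Δelav,fnenFNE heads against embryos, from 119 higher and 51 lower to 88 and 31.

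Exons with few reads limit what can be seen, since 294 small exons were never tested, and an exon at 0 in a library is not shown to be absent. Bin counts do not separate reads that join an exon from reads of unspliced RNA.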

Other observations

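Uhg1 carries several small exons, and besides the 46-nt bin at 0 in Δelav, its 44-nt bin was higher in elavmin than in wild-type embryos, by 1.09 (log2, edgeR), with the call lost without wild-type library c (0.92, adjusted p = 0.0235) or elavmin library a (1.0, adjusted p = 0.0136). The 50-nt bin of RpS3A, a ribosomal protein gene, annotated in its 3′ UTR, was higher in all 3 embryo mutants, by 0.70 ± 0.12 in Δelav, 1.07 ± 0.09 in elavmin and 1.45 in Δelav,fnenFNE, and against its neighbouring bins by 0.23, 0.36 and 0.51, none of which was called. These comparisons share the wild-type libraries.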
